A study of Mus musculus with 2 samples.

Results

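The genes described are 9 ligands and receptors that antigen presenting cells display to T cells: Cd80, Cd86, Cd40, Cd83, Icosl, Cd274, Pdcd1lg2, Tnfsf4 and Tnfsf9. They were chosen by name, and all 9 were found among the 32285 genes counted. An antigen presenting cell shows peptide on MHC molecules, and these surface proteins set whether the T cell that recognises the peptide is activated, restrained or ignored. CD80 and CD86 bind CD28, which activates, and CTLA-4, which restrains. CD40 receives CD40 ligand from T cells and signals through TRAF proteins and NF-kB, and ICOSL, OX40 ligand (Tnfsf4) and 4-1BB ligand (Tnfsf9) engage ICOS, OX40 and 4-1BB on T cells. PD-L1 (Cd274) and PD-L2 (Pdcd1lg2) engage the inhibitory receptor PD-1. In skin, dendritic cells and Langerhans cells that take up antigen mature, gain the chemokine receptor CCR7 and carry the antigen to draining lymph nodes.

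The cells were live CD45+ cells, that is leukocytes, sorted from collagenase-digested skin of wild-type C57BL/6 mice at postnatal day 15. From day 4 to day 14, on alternate days, the mice of one pool received anti-Gr-1, which recognises Ly6G and Ly6C on neutrophils and monocytes, and those of the other received an isotype control. The study used the antibody to deplete monocytes. Each pool held cells of 4 to 7 mice and gave 1 droplet-based 3′ RNA library, so there are no replicates: no difference was tested, and every interval below is a 95% interval for counting error alone, not for differences among mice.

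The anti-Gr-1 library kept 7579 cells with a median of 7908 unique molecular identifiers (UMIs, counted RNA molecules) per cell, and the isotype control library kept 16487 cells with a median of 5081. The libraries shared 61 cell barcodes. Marker genes, none of them among the 9 members, gated 1999 anti-Gr-1 cells (26.4%) and 3886 isotype control cells (23.6%) into 9 types, each called "-like" because it rests on RNA markers alone. Neutrophil-like cells numbered 3 under anti-Gr-1 and 134 under isotype control, and classical monocyte-like cells numbered 11 and 125. The types, with anti-Gr-1 cells given before isotype control cells, were mature dendritic cell (DC)-like cells with Ccr7 and Fscn1 (92 and 192), type 1 DC-like cells with Xcr1 or Clec9a (493 and 409), type 2 DC-like cells with Cd209a and Mgl2 (1067 and 2072) and Langerhans-like cells with Cd207 and Epcam (67 and 144). They were also resident macrophage-like cells with Lyve1 and Folr2 (98 and 187), other C1q macrophage-like cells (94 and 421), phagocytes with Fn1, Lpl and Retnla (55 and 232) and non-classical monocyte-like cells with Ace or Treml4 (22 and 104). Cells sexed by Xist and Y-linked UMIs were more often male under anti-Gr-1 in all 9 types, with 94 female and 313 male type 1 DC-like cells against 155 and 161 under isotype control, and 241 female and 663 male type 2 DC-like cells against 759 and 851. In all 9 types the median UMI count per cell was higher in the anti-Gr-1 library. It was 14751 against 9579.5 in mature DC-like cells, and the widest gap was 13603 against 3210.5 in the Fn1, Lpl and Retnla phagocytes. Langerhans-like cells had UMIs of all 4 of their markers, but their 10 leading genes included the keratinocyte genes Krt15, Defb6 and Ccl27a, and their summed non-immune markers (3 of 6 detected in anti-Gr-1, 6 of 6 in isotype control) reached 733 CPM (counts-per-million of the type's UMIs) in anti-Gr-1 and 409 CPM in isotype control.

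Each level is the sum over a type's cells, in CPM. Of the 8 members with enough UMIs, 5 had their highest level in mature DC-like cells under anti-Gr-1 and 5 under isotype control, the same 5 in both: Cd40, Cd83, Icosl, Cd274 and Pdcd1lg2. Over all genes, 9.29% were highest in that type in the anti-Gr-1 library and 9.58% in the isotype control library. Cd86 peaked in Langerhans-like cells, as did 15.4% and 20.4% of all genes, Tnfsf9 peaked in type 2 DC-like cells and Cd80 in monocyte-like and mature DC-like cells together. Between the libraries, members in 8 types gave 51 pairs of a member and a type with at least 20 UMIs over both libraries. None of these pairs was at least 1.5-fold higher in anti-Gr-1 with an interval that excluded 1, and 9 were at least 1.5-fold lower, 5 of them Tnfsf9. Among all genes the share lower by this rule was 8.35% in mature DC-like, 5.27% in type 1 DC-like, 3.9% in type 2 DC-like, 6.29% in Langerhans-like, 4.61% in resident macrophage-like, 5.24% in other C1q macrophage-like and 6.58% in non-classical monocyte-like cells, and 6.55% in the Fn1, Lpl and Retnla phagocytes. The share higher was 1.99%, 1.24%, 0.581%, 1.6%, 2%, 3.4%, 4.84% and 1.85% in the same order.

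**Figure D1:**
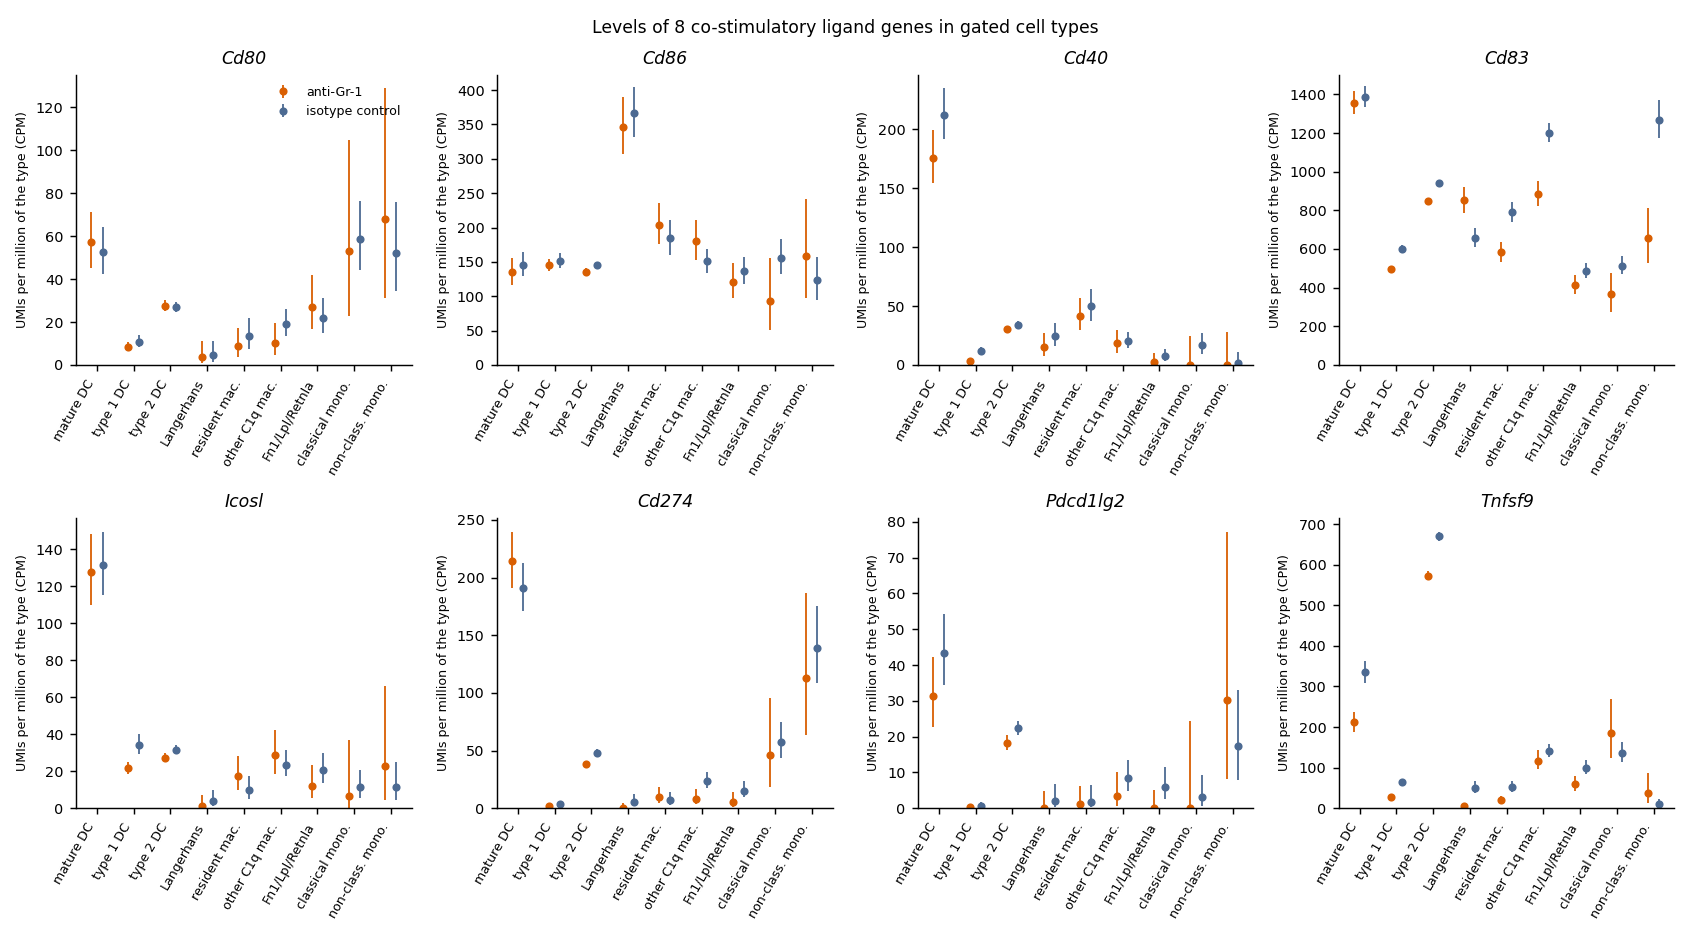
Level of each of 8 members (CPM of the type's summed UMIs, vertical axis, linear from 0) in the 9 gated types, with anti-Gr-1 points left of isotype control points and bars for exact 95% Poisson intervals. Cd40 and Icosl stand highest in mature DC-like cells in both libraries. Cd274 does too, but its isotype control interval overlaps that of non-classical monocyte-like cells. Cd86 stands out in Langerhans-like cells at 347 and 367 CPM, and Tnfsf9 stands out in type 2 DC-like cells at 572 and 670 CPM.

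Cd80 and Cd86, the ligands of CD28 and CTLA-4, lie on the same chromosome (mm10, GENCODE M21 annotation: chr16:38455561-38496335, plus strand, and chr16:36603869-36666081, minus strand) but were distributed differently over the types. Cd86 was found in every type. It reached 347 CPM (307 to 391) in anti-Gr-1 and 367 CPM (331 to 405) in isotype control Langerhans-like cells, against 204 and 185 CPM in the next type, resident macrophage-like cells. These intervals did not overlap in either library. From the next type down, the interval of each type overlapped that of the type ranked just below it, although resident macrophage-like cells lay above type 2 DC-like cells (135 CPM, 129 to 141, in anti-Gr-1 and 145 CPM, 140 to 150, in isotype control) in both libraries. After each cell was thinned to 2000 UMIs, 41.8% of anti-Gr-1 and 42.6% of isotype control Langerhans-like cells held a Cd86 UMI (97.0% and 73.6% before thinning). In T cell-like cells, which serve here as a comparator for RNA freed from other cells, 0.654% and 1.27% did (2.29% and 3.63% before thinning, at median depths of 6695.5 and 4981 UMIs).

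Cd80 was at or near the background in Langerhans-like cells, with 3 UMIs with anti-Gr-1 and 5 with isotype control. Its level in mature DC-like cells was 57.1 CPM (45.3 to 71.1) in anti-Gr-1 and 52.4 CPM (42.3 to 64.1) in isotype control. Non-classical monocyte-like cells gave 67.9 CPM from 9 UMIs in anti-Gr-1 and 52.1 CPM from 27 UMIs in isotype control, and classical monocyte-like cells gave 53.1 CPM from 8 UMIs and 58.6 CPM from 56 UMIs. The order of these 3 types cannot be read, since their intervals overlapped in both libraries. In isotype control cells all 3 lay above type 2 DC-like cells at 26.9 CPM (24.7 to 29.2). Neutrophil-like cells, a type almost without cells in the anti-Gr-1 library, had 143 CPM (103 to 195) of Cd80 in the isotype control library.

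The balance of the pair therefore differed by type, which can be read without comparing lengths because it is the same ratio everywhere. For each 100 Cd86 UMIs, mature DC-like cells held 42.3 Cd80 UMIs (32.2 to 55.3) under anti-Gr-1 and 35.9 (28.0 to 45.6) under isotype control, and type 2 DC-like cells held 20.4 and 18.5. Type 1 DC-like cells had 5.90 (4.58 to 7.48) and 7.15 (5.32 to 9.43), and Langerhans-like cells 1.11 (0.228 to 3.28) and 1.29 (0.415 to 3.03). Non-classical monocyte-like cells, at 42.9 and 42.2, were level with mature DC-like cells. Over the 16 points of 8 types and 2 libraries, log2 levels of Cd80 and Cd86 had a Pearson r of -0.71; the points share their libraries and depths, so this is a description. Neither gene differed by the size rule between libraries in any type: ratios of anti-Gr-1 to isotype control ran from 0.890 to 1.28 for Cd86 in 8 types and from 0.547 to 1.30 for Cd80 in 7 types.

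Cd40 (chr2:165055627-165072948, plus strand) encodes the receptor through which helper T cells license antigen presenting cells. Its level was 176 CPM (154 to 199) in anti-Gr-1 and 212 CPM (192 to 235) in isotype control mature DC-like cells. Those values were 4.24 and 4.27 times the next type, resident macrophage-like cells at 41.4 and 49.7 CPM. Type 2 DC-like cells followed at 30.1 and 34.3 CPM. Non-classical monocyte-like cells held 0 Cd40 UMIs under anti-Gr-1 and 1 under isotype control. Taken as 3 counts, the limit that a count of 0 allows is 22.6 CPM.

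Type 1 DC-like cells had less Cd40 under anti-Gr-1, at 3.69 CPM (2.51 to 5.23; 31 UMIs), than under isotype control, at 11.5 CPM (8.68 to 14.9; 57 UMIs). The ratio was 0.322 (0.201 to 0.507), and it met the size rule under all 10 alternatives that gave it a value, from 0.273 to 0.424. In this type 5.27% of genes were at least 1.5-fold lower and 1.24% at least 1.5-fold higher, and 3 of its 7 measured members were lower. The share of all type 1 DC-like cells with a Cd40 UMI was 4.26% with anti-Gr-1 and 5.62% with isotype control. After thinning it was 1.22% (0.450 to 2.64) and 0.985% (0.269 to 2.5), so the thinned shares did not show the difference. The comparator level was also lower in anti-Gr-1: T cell-like cells held 0.842 CPM of Cd40 in anti-Gr-1 and 2.41 CPM in isotype control. Against 3 times the lowest comparator level, or the level of 3 UMIs there, the type 1 DC-like interval was not above the limit in anti-Gr-1 and was above it in isotype control, so the anti-Gr-1 value is not separated from background. The comparator's part in the result was not tested.

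Cd83 (chr13:43784775-43803132, plus strand) encodes a glycoprotein that keeps MHC class II and CD86 on the surface of maturing dendritic cells. It was detected in all 9 types. Mature DC-like cells had 1357 CPM (1297 to 1419) in anti-Gr-1 and 1389 CPM (1335 to 1444) in isotype control. All 92 anti-Gr-1 mature DC-like cells and 180 of 192 isotype control ones held a Cd83 UMI. In the isotype control library the next types, non-classical monocyte-like cells at 1268 CPM and other C1q macrophage-like cells at 1201 CPM, came close, and the first of these overlapped mature DC-like cells. In the anti-Gr-1 library they were at 656 and 885 CPM, well below.

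Cd83 in non-classical monocyte-like cells met the size rule, at 656 CPM (526 to 809; 22 cells) in anti-Gr-1 and 1268 CPM (1173 to 1368; 104 cells) in isotype control. The ratio was 0.518 (0.409 to 0.648), in a type where 6.58% of genes were lower by the rule. In 5 further types Cd83 was lower by less than the rule with an interval below 1, from 0.736 in resident and 0.737 in other C1q macrophage-like cells to 0.899 in type 2 DC-like cells. In Langerhans-like cells it was higher, at 851 CPM (788 to 919) in anti-Gr-1 and 656 CPM (608 to 707) in isotype control, a ratio of 1.30 (1.16 to 1.45). Cd83 in mast cell-like cells, where its level was the lowest of the comparators, was 13.5 CPM in anti-Gr-1 and 87.0 CPM in isotype control. Both non-classical monocyte-like levels were over 3 times those comparator levels, and the part of the comparator in the result was not tested.

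Icosl (chr10:78069302-78083913, plus strand) encodes the ligand of ICOS, a receptor of activated, follicular helper and regulatory T cells. Mature DC-like cells had 128 CPM (110 to 148) in anti-Gr-1 and 132 CPM (115 to 149) in isotype control. These were 4.44 and 3.82 times the next type. Type 2 DC-like cells had 27.3 and 31.6 CPM, and Langerhans-like cells had 1 and 4 UMIs. In type 1 DC-like cells Icosl was lower in anti-Gr-1, at 21.6 CPM (18.6 to 25), than in isotype control, at 34.4 CPM (29.4 to 40.0), a ratio of 0.629 (0.508 to 0.780). The thinned shares of cells with an Icosl UMI were 3.67% (2.19 to 5.73) and 7.39% (5.04 to 10.4). The ratio was 0.605 in female cells and 0.842 (0.609 to 1.18) in male cells, and the size rule was not met in male cells alone, with gates on cells thinned to 4000 UMIs or with the scaling by median gene.

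Cd274 and Pdcd1lg2, the ligands of PD-1, are neighbours on chromosome 19 (chr19:29367455-29388095 and chr19:29410919-29471161, both plus strand, 22823 bases apart). Over the 16 points Pdcd1lg2 was the member whose levels followed another member most closely, with a Pearson r of 0.96 to Cd274, the nearest of 4200 genes searched. The RefSeq promoter windows of both genes run from 250 bases before to 50 after the start on build GRCm38.p6. They are shown because the levels of both genes were correlated over the 16 points. The windows span chr19:29367188-29367487 for Cd274 and chr19:29410669-29410968 for Pdcd1lg2, written 5′ to 3′ on the plus strand with matches to the NF-kB consensus in capitals.
Cd274: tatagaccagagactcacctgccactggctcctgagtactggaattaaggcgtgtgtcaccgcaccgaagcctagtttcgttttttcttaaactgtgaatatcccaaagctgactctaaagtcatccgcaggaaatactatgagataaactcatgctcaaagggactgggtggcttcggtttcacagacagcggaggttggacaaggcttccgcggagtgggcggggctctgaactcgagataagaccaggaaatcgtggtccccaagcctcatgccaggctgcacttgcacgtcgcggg
Pdcd1lg2: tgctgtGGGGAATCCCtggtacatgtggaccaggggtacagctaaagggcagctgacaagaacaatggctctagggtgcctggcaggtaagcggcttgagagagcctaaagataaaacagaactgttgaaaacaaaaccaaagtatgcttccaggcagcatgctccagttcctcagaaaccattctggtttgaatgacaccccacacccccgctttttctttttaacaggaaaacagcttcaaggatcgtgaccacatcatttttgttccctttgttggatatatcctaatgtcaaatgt
The capitals in Pdcd1lg2 mark a stretch that matches on both strands and begins 244 bases before the start, and Cd274 has no match in its window. Of 32851 promoter windows, 4.51% hold the consensus. TATAAA, which 13.6% hold, was searched on both strands and matched in neither window. GC content was 52.7% with 15 CpG in Cd274 and 46.0% with 3 CpG in Pdcd1lg2. A match is a description of letters and not a binding site.

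Cd274 reached 214 CPM (191 to 240) in anti-Gr-1 and 191 CPM (171 to 212) in isotype control mature DC-like cells. Non-classical monocyte-like cells were next, at 113 CPM (63.3 to 187) and 139 CPM (109 to 175), followed by classical monocyte-like cells at 46.5 CPM (7 UMIs, all from 1 cell) and 57.6 CPM. The intervals of mature DC-like and non-classical monocyte-like cells overlapped in isotype control but not in anti-Gr-1. Type 2 DC-like cells had 38.1 and 48.1 CPM and type 1 DC-like cells 1.90 and 3.82 CPM, so the dendritic types spread widely. Cd274 was not particular to antigen presenting cells: mast cell-like cells had 76.3 and 85.0 CPM and T cell-like cells 28.8 and 27.3 CPM. Only 37.9% and 35.8% of all Cd274 UMIs of kept cells lay in the 9 types.

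Pdcd1lg2 was highest in mature DC-like cells, at 31.4 CPM (22.8 to 42.2) in anti-Gr-1 and 43.5 CPM (34.4 to 54.2) in isotype control. Non-classical monocyte-like cells were at 30.2 CPM (8.22 to 77.3; 4 UMIs) and 17.4 CPM (7.94 to 33.0; 9 UMIs), so in the anti-Gr-1 library the order of these types cannot be read. Type 2 DC-like cells held 18.2 CPM (16.2 to 20.3) and 22.4 CPM (20.5 to 24.5). Type 1 DC-like, Langerhans-like and resident macrophage-like cells had at most 4 UMIs each in either library. T cell-like cells had 13.5 and 13.3 CPM and held 27.3% and 21.6% of all Pdcd1lg2 UMIs of kept cells, and the 9 types together held 30.6% and 35.3%. Within mature DC-like cells, 20 of 21 anti-Gr-1 cells and 35 of 41 isotype control cells with a Pdcd1lg2 UMI also held a Cd274 UMI, whereas 49 of 92 and 72 of 192 cells of the type held one. In type 2 DC-like cells 74 of 192 and 121 of 337 did, whereas 266 of 1067 and 491 of 2072 cells of that type held a Cd274 UMI. These cells were not thinned, and deeper cells show both genes more often. The proportion of the pair was not constant: for each 100 Cd274 UMIs there were 14.7 (10.4 to 20.2) and 22.7 (17.5 to 29.2) Pdcd1lg2 UMIs in mature DC-like cells, and 47.7 (41.5 to 54.8) and 46.6 (41.8 to 52.0) in type 2 DC-like cells.

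Both genes were lower in anti-Gr-1 type 2 DC-like cells by less than the size rule, with ratios of 0.792 (0.716 to 0.875) for Cd274 and 0.810 (0.700 to 0.938) for Pdcd1lg2. In mature DC-like cells the ratios were 1.12 (0.956 to 1.31) and 0.723 (0.488 to 1.06). The 1 pair that met the rule was Cd274 in other C1q macrophage-like cells, at 8.07 CPM (3.24 to 16.6; 7 UMIs in 5 cells) in anti-Gr-1 and 23.5 CPM (17.2 to 31.2; 47 UMIs in 33 cells) in isotype control, where 5.24% of genes were lower. Both levels were below that of T cell-like cells, and the rule was not met in male cells alone, with a ratio of 0.459 (0.166 to 1.10).

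Tnfsf9 (chr17:57105325-57107757, plus strand) and Tnfsf4 (chr1:161395409-161418410, plus strand) encode tumour necrosis factor family ligands that sustain T cells after priming. Tnfsf9 was highest in type 2 DC-like cells, at 572 CPM (561 to 584) in anti-Gr-1 and 670 CPM (659 to 681) in isotype control. Mature DC-like cells followed at 211 CPM (188 to 237) and 335 CPM (309 to 363). Over all genes 3.52% and 4.28% were highest in type 2 DC-like cells. That type held 63.2% of all Tnfsf9 UMIs of kept anti-Gr-1 cells and 50.4% of those of isotype control cells. Type 1 DC-like cells had 28.3 and 64.6 CPM and non-classical monocyte-like cells 5 UMIs in each library.

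Tnfsf9 was the member that differed most often between the libraries. All 7 of its measured pairs had a ratio below 1, and 5 met the size rule. In type 1 DC-like cells the ratio was 0.438, with 28.3 CPM (24.8 to 32.1; 238 UMIs) in anti-Gr-1 and 64.6 CPM (57.7 to 72.0; 321 UMIs) in isotype control, and it met the rule under all 11 alternatives, from 0.0666 in female cells to 0.591 in male cells. In mature DC-like cells the ratio was 0.630 (0.546 to 0.725), in a type where 8.35% of genes were lower by the rule. It fell short of the rule in cells thinned to 2000 UMIs, at 0.712 (0.486 to 1.03), and with mitochondrial UMIs under 5%, at 0.672 (0.582 to 0.775). Mature DC-like cells with 7 to 10 of the 10 mature DC markers had 161 CPM (139 to 185) in anti-Gr-1 and 180 CPM (159 to 203) in isotype control. Those intervals overlapped. With 5 or 6 markers, 8 anti-Gr-1 cells held 94 Tnfsf9 UMIs and 40 isotype control cells held 341. The part of this mix in the ratio was not tested. In type 2 DC-like cells, where the gene is highest, the ratio was 0.854, short of the rule, and it was 1.03 (0.982 to 1.08) in female and 0.792 (0.764 to 0.820) in male cells.

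The other 3 pairs rest on few molecules or on the gates. Langerhans-like cells had 4 Tnfsf9 UMIs with anti-Gr-1 and 54 with isotype control, and 1 isotype control cell held 64.8% of the isotype control UMIs; without the top cell of each library the ratio of 0.101 became 0.144 (0.0162 to 0.596). Resident macrophage-like cells had 19.6 CPM (18 UMIs) and 52.4 CPM (59 UMIs), a ratio of 0.375, and 0.825 with gates on thinned cells. The Fn1, Lpl and Retnla phagocytes had 59.9 and 100 CPM, a ratio of 0.597, with 45.5% of the anti-Gr-1 UMIs from 1 cell, and without the top cells it was 0.367. In that type the ratio turned to 1.39 with 1 more marker asked for in each gate and to 1.14 in male cells. The comparator level moved in the same direction: mast cell-like cells had 8.12 CPM of Tnfsf9 in anti-Gr-1 and 30.7 CPM in isotype control. The intervals of Langerhans-like and resident macrophage-like cells were not above 3 times that level in either library. In isotype control, those of type 1 DC-like cells and of the Fn1, Lpl and Retnla phagocytes were not above it either. The part of the comparator in these ratios was not tested.

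Tnfsf4, the OX40 ligand gene, was close to undetected. Kept anti-Gr-1 cells held 32 UMIs and isotype control cells 29, with 1 and 5 of them in mature DC-like cells and 1 and 0 in type 2 DC-like cells. At this depth no level in any type could be given beyond an upper bound, such as 3.98 CPM in anti-Gr-1 and 6.50 CPM in isotype control mature DC-like cells.

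**Figure D2:**
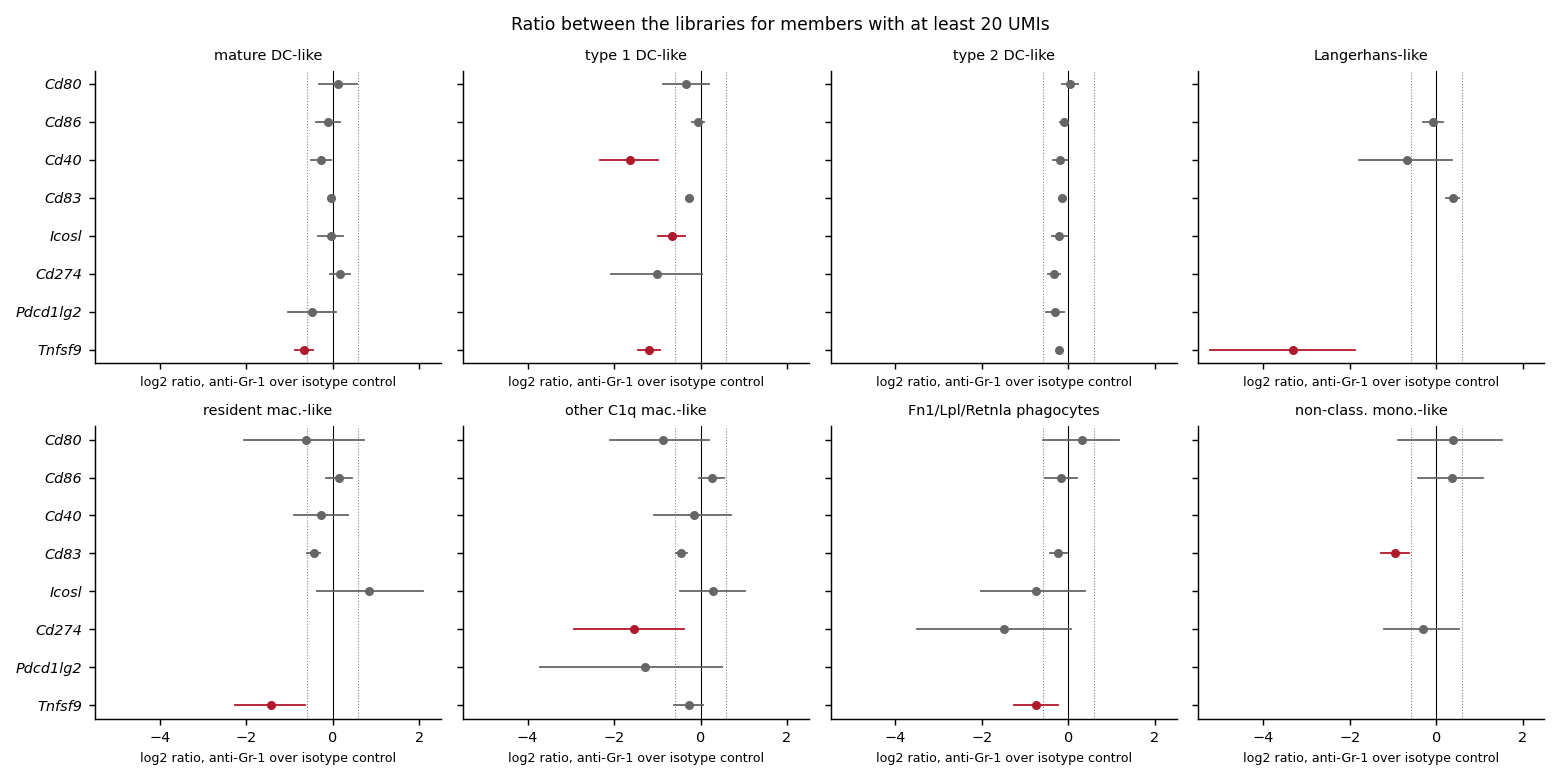
Log2 ratio of anti-Gr-1 to isotype control (horizontal axis, with exact conditional 95% intervals) for each member with at least 20 UMIs, by type. Red marks the 9 pairs at least 1.5-fold lower with an interval excluding 1, dotted lines mark the 1.5-fold limits, and 5 of the red points are Tnfsf9, with none on the higher side.

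Mature DC-like cells were not uniform. Cells with UMIs of both Cd207 and Epcam, a split made after the values were seen, numbered 24 of 92 in anti-Gr-1 and 35 of 192 in isotype control. They had 15.4 CPM (up to 35.9) and 29.4 CPM (14.7 to 52.6) of Cd274, against 274 CPM (244 to 307) and 234 CPM (209 to 260) in the other mature DC-like cells. Pdcd1lg2 had 0 and 3 UMIs there, against 44 and 75 UMIs in the other cells. Cd83 had overlapping intervals in both parts, at 1299 and 1284 CPM against 1374 and 1416 CPM, and Cd40 was at 117 and 163 CPM against 193 and 225 CPM. Cd86 was at 67.7 CPM (42.4 to 103) and 110 CPM (78.7 to 149) against 155 CPM (133 to 181) and 156 CPM (136 to 177). Cd80 was at 9.23 and 42.8 CPM against 71.6 and 54.9 CPM. For Cd86 and Cd80 the intervals overlapped in isotype control but not in anti-Gr-1. Tnfsf9 had 0 UMIs in the 24 anti-Gr-1 cells and 67 UMIs in the 35 isotype control cells. The low Cd274 was seen in both libraries. Outside the mature gate, Langerhans-like cells had 0 and 6 Cd274 UMIs, and type 1 DC-like cells were also low, at 1.90 and 3.82 CPM. The split did not leave out cells with Xcr1 or Clec9a, and the origin of the cells with both genes was not tested.

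**Figure D3:**
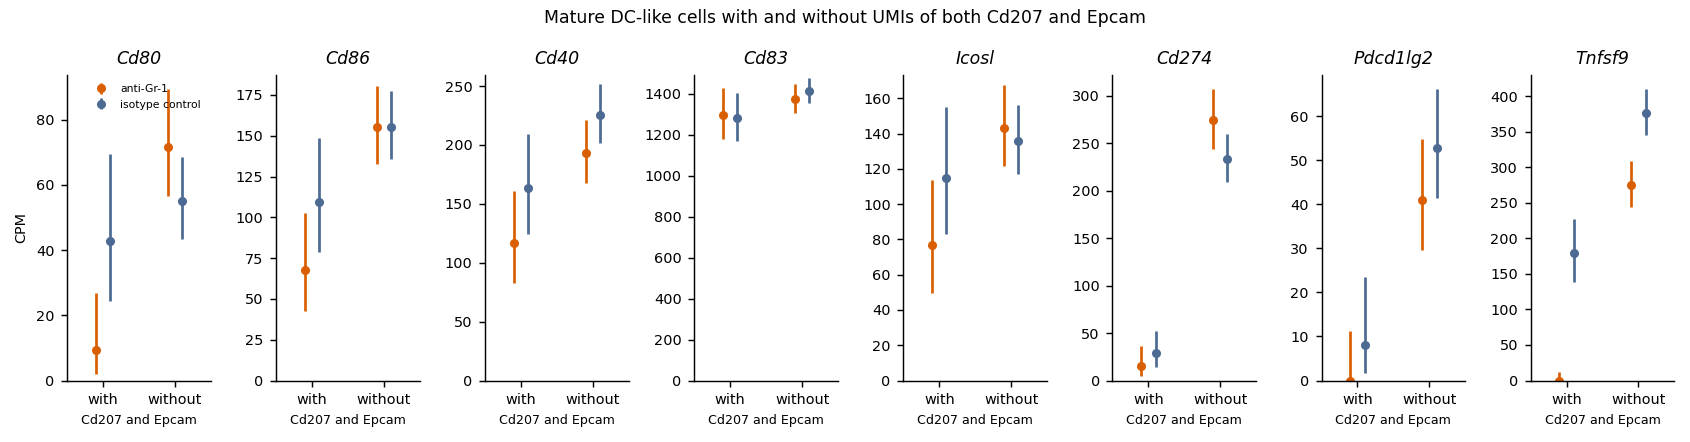
Level of 8 members (CPM, linear axis from 0) in mature DC-like cells with and without UMIs of both Cd207 and Epcam, anti-Gr-1 points left of isotype control points, bars for exact 95% Poisson intervals. Cd274 is at 15.4 and 29.4 CPM with both genes and at 274 and 234 CPM without, while Cd83 hardly differs.

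Members also differed in how their levels went with the number of maturation markers. Dendritic-like and Langerhans-like cells were binned by how many of the 10 mature DC markers had a UMI: 0 or 1, 2 to 4, 5 or 6, and 7 to 10. All cells of the upper 2 bins are mature DC-like cells by the gate, and the lower 2 mix the other types, with 59.6% and 81.8% type 2 DC-like cells in anti-Gr-1 and 75.6% and 87.0% in isotype control. Differences across the bins therefore cannot be told apart from differences between types. Cd274 was at 18.2, 42.4, 104 and 227 CPM over these bins in anti-Gr-1 and at 29.4, 55.6, 191 and 191 CPM in isotype control. Cd40 was at 16.3, 32.8, 55.3 and 189 CPM in anti-Gr-1 and at 25.4, 38.2, 145 and 228 CPM in isotype control. Cd274 and Cd40 were thus several times higher in the last bin than in the first in both libraries. Tnfsf9 was at 291, 594, 649 and 161 CPM in anti-Gr-1 and at 435, 730, 988 and 180 CPM in isotype control, highest in the middle and lowest in the last bin. Cd86 stayed between 126 and 229 CPM throughout. Within type 2 DC-like cells alone, over the lower 2 bins, Tnfsf9 was at 479 and 744 CPM in anti-Gr-1 and at 576 and 824 CPM in isotype control, and Cd274 was at 29.8 and 53.2 CPM and at 38.4 and 63.8 CPM. Within type 1 DC-like cells the libraries lay further apart in the second bin. Tnfsf9 was at 27.4 and 32.6 CPM there in anti-Gr-1 and at 40.6 and 143 CPM in isotype control. Icosl was at 21.6 and 21.9 CPM and at 29.1 and 51.8 CPM. Cd40 was at 3.19 and 5.99 CPM and at 5.51 and 31.1 CPM. In the first bin the intervals of the libraries overlapped for Icosl and Cd40 but not for Tnfsf9. The bin of 5 or 6 markers held 8 anti-Gr-1 and 40 isotype control cells, and deeper cells show more markers; median depths over the isotype control bins were 9979, 12116, 5543 and 9917.5 UMIs.

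**Figure D4:**
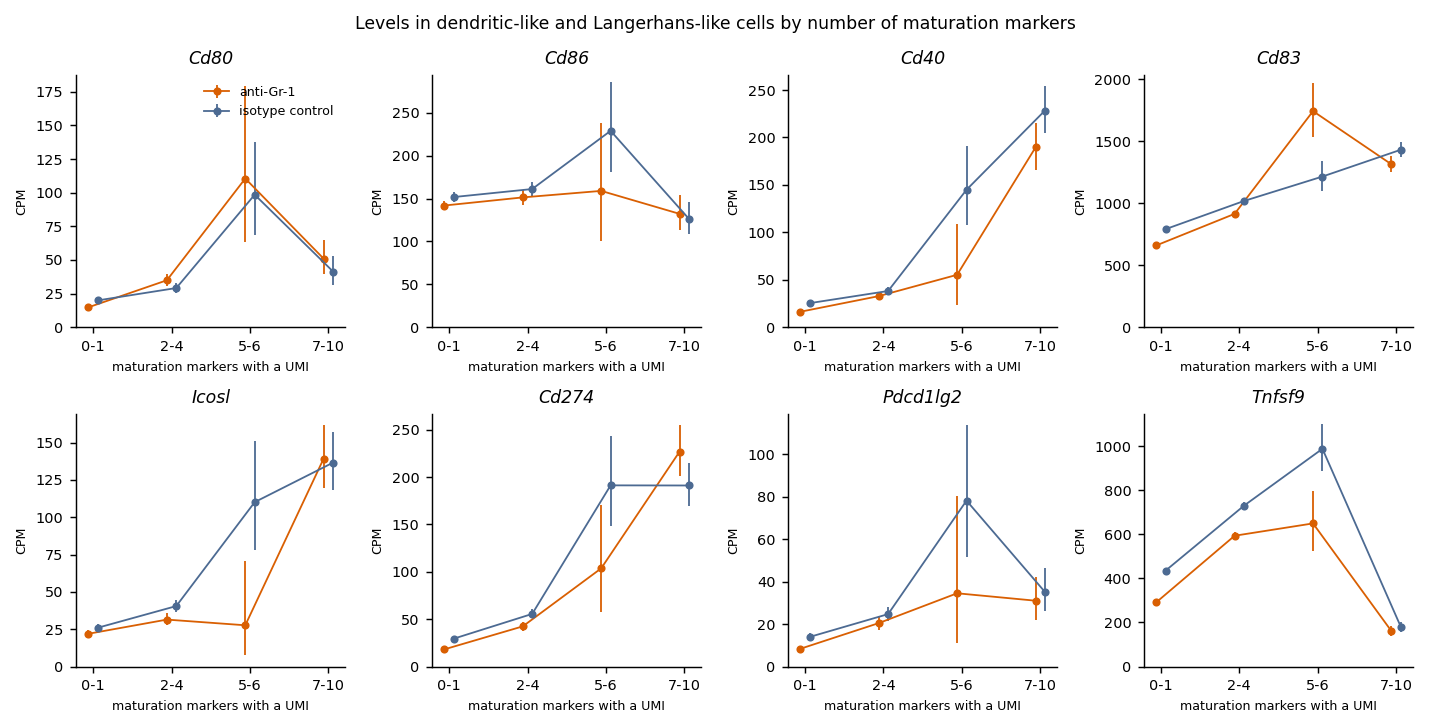
Level of 8 members (CPM, linear axis from 0) in dendritic-like and Langerhans-like cells by the number of mature DC markers with a UMI, anti-Gr-1 in orange and isotype control in blue, with exact 95% Poisson intervals. Cd40, Icosl and Cd274 are highest at 7 to 10 markers or level there with the bin before, and Tnfsf9 is lowest there at 161 and 180 CPM.

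Single cells also differed in how many members they showed. After thinning to 2000 UMIs, 30.8% (21.5 to 41.3) of anti-Gr-1 and 32.7% (25.6 to 40.5) of isotype control mature DC-like cells held UMIs of 3 or more members. In type 2 DC-like cells 16.2% (14.1 to 18.6) and 21.4% (19.6 to 23.2) did, and in type 1 DC-like cells 2.85% (1.57 to 4.74) and 4.93% (3.03 to 7.51). No member was found in 6.59% and 4.85% of mature DC-like cells, in 35.0% and 26.8% of type 1 DC-like cells and in 81.7% and 74.4% of T cell-like cells. The type 2 DC-like share with 3 or more members was lower in anti-Gr-1 by more than counting error, and that of mature DC-like cells was not. That error counts cells of a single pool, not mice. The mean number of members per thinned type 2 DC-like cell was 1.53 with anti-Gr-1 against 1.70 with isotype control. Comparator means moved in the same direction, at 0.211 against 0.301 for T cell-like and 0.213 against 0.295 for mast cell-like cells. The part of free RNA in the lower share was not tested.

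**Figure D5:**
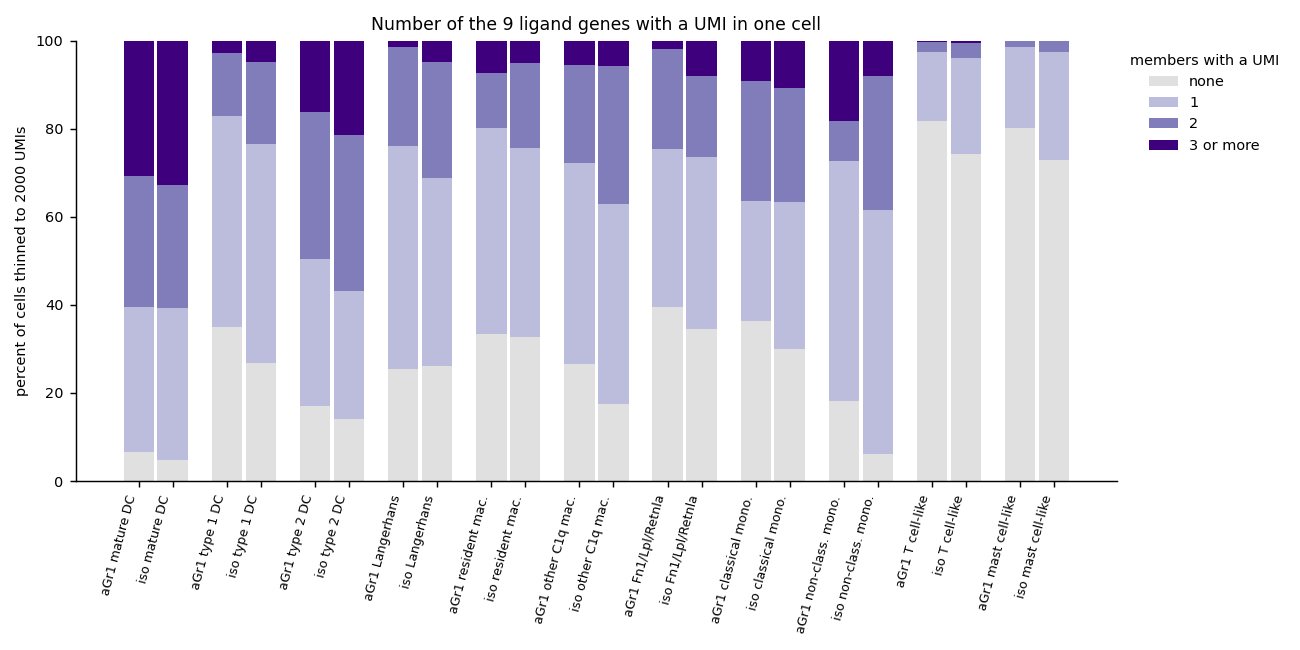
Share of cells (percent, stacked, cells thinned to 2000 UMIs) with UMIs of 0, 1, 2 or at least 3 of the 9 members, for each type with the anti-Gr-1 bar (aGr1) left of the isotype control bar (iso), and for T cell-like and mast cell-like cells. Mature DC-like cells have the largest dark part, at 30.8% and 32.7%.

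Genes whose log2 levels were most like a member's over the 16 points were, among 4200 searched, Bmp2k for Cd40 (Pearson r 0.97), Mmp9 for Cd86 (0.96), Mcemp1 for Cd80 (0.95), Ppdpf for Cd274 (0.93), Rab8b for Icosl (0.92), Slc2a3 for Tnfsf9 (0.89) and Cdkn1a for Cd83 (0.83). Nfkb2, the precursor of the p52 subunit of NF-kB, was also among the 3 nearest to Cd274 (0.93). The points share libraries and depth, and the best of so many genes is high by selection.

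The other genes of the pathway were described by lists. Of 14 genes of CD40 and NF-kB signalling, 11 were highest in mature DC-like cells in each library, as against 9.29% and 9.58% of all genes. Over 105 pairs of these genes and types 1 was higher and 7 were lower in anti-Gr-1 by the rule, with a median log2 ratio of -0.14. The median was 0.20 in mature DC-like and 0.18 in non-classical monocyte-like cells, and negative in the other types. The lower pairs included Rela, the p65 subunit, in Langerhans-like cells at 21.8 CPM (17 UMIs) and 48.1 CPM. In mature DC-like cells Rela was at 96.4 CPM in anti-Gr-1 and 71.9 CPM in isotype control, short of the rule. Of 10 genes for MHC class II and its regulation none was highest in mature DC-like cells, and of 73 pairs none was higher and 4 were lower. Non-classical monocyte-like cells, with 22 anti-Gr-1 cells and 6.58% of all genes lower, held 3 of those 4 among 7 genes of the list measured there: H2-Aa at 143 CPM (19 UMIs) and 380 CPM, H2-Eb1 at 83.0 CPM (11 UMIs) and 268 CPM, and Cd74, the invariant chain, at 370 CPM (49 UMIs) and 949 CPM. No comparator level is given for these 3 genes, so their levels are not separated from free RNA. The part of free RNA in the lower values was not tested. Non-classical monocyte-like cells had more Tnf, the founding cytokine of the family, at 347 CPM (46 UMIs) in anti-Gr-1 and 65.6 CPM (34 UMIs) in isotype control. This was the 1 higher pair among 19 of the other TNF family ligands, of which 8 were lower. They also had more Icam1, the adhesion ligand of LFA-1, at 196 CPM in anti-Gr-1 and 69.5 CPM in isotype control.

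Adhesion partners gave 2 higher and 4 lower of 51 pairs, cytokines 1 and 4 of 38, and other B7 family genes 0 and 2 of 15. Over all genes and the 8 types, 1.91% of pairs were higher and 5.64% lower, and counts this small are not read as results about the lists. Il10, an inhibitory cytokine, was at 3.27 CPM (3 UMIs) in anti-Gr-1 and 42.6 CPM (48 UMIs) in isotype control resident macrophage-like cells. The receptors on lymphocytes that bind these ligands gave 1 higher and 11 lower of 17 pairs, with a median log2 ratio of -1.23. The higher one was Tnfrsf4, the OX40 gene, in mature DC-like cells, at 161 CPM in anti-Gr-1 and 78.0 CPM in isotype control. The lower ones included Icos in type 2 DC-like cells at 3.84 and 11.7 CPM. The T cell markers, all 7 of them detected in both libraries, were lower with them: their sum in type 2 DC-like cells was 54.0 CPM in anti-Gr-1 and 108 CPM in isotype control, and in the Fn1, Lpl and Retnla phagocytes it was 40.8 and 200 CPM. Their part in the lower values was not tested. Over the 51 member pairs the median log2 ratio was -0.27, with 40 pairs below 1 and 11 above. The median over well measured genes lay between -0.10 and -0.03 in the 8 types. That set has a floor of 20 CPM, which some member levels did not reach. In mature DC-like cells it held 4201 genes, against 7833 under the floor of 20 UMIs used for the pairs. No matching count of pairs below 1 over all genes is given. Whether the members were lower than genes at large was therefore not tested.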

How the data were processed

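The authors deposited raw UMI counts for each gene in each barcode. Cell Ranger 4.0.0 made them, per the file headers, on build mm10, according to the submitters' processing notes. The matrices hold barcodes already called as cells, and the gene symbols and barcodes were used as deposited. No other filter by the authors is given in the sources used here. The labels' protocols name a 3′ v2 kit. Groups came from the treatment labels, with 1 library each.

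Barcodes with at least 500 UMIs, at least 200 genes and under 10% mitochondrial UMIs were kept: 8047 of 9110 in anti-Gr-1 (85142470 UMIs in all) and 19542 of 21311 in isotype control (125253392 UMIs). Scrublet in scanpy 1.11.5 removed 468 doublets in anti-Gr-1 at its automatic threshold (5.82%). In isotype control that threshold called 32.5%, above a limit of 25%, so the 3055 highest scores were removed, the number expected from the barcode count. The rule thus differed between libraries. Among kept cells, those with both Xist and Y-linked UMIs were 2.43% of anti-Gr-1 and 6.60% of isotype control type 1 DC-like cells. In mature DC-like cells they were 2.17% and 7.29%, and in type 2 DC-like cells 2.72% and 5.41%. Classical and non-classical monocyte-like cells went the other way, with 1 such cell each in anti-Gr-1. The part of such cells in the differences between libraries was not tested.

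A cell entered a type by the number of its markers with a UMI: mature DC at least 5 of 10, type 1 DC at least 4 of 8 with Xcr1 or Clec9a, type 2 DC at least 4 of 7, macrophage at least 5 of 10 (resident with at least 3 of 6 resident markers), classical monocyte at least 3 of 7 with Ly6c2, non-classical monocyte at least 4 of 8 with Treml4 or Ace, Langerhans with both Cd207 and Epcam. Phagocytes with Fn1, Lpl and Retnla had at least 3 of 4 markers and passed no other gate. Cells with markers of T, B, mast, NK, innate lymphoid, neutrophil or non-immune cells were left out, and 175 anti-Gr-1 and 634 isotype control cells that passed several gates were set aside. These thresholds were set after the data were seen. The members and lists were chosen with earlier results of these data known.

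With 1 library per group there was no test. UMIs were summed per type and given as CPM with exact Poisson intervals; shares have Clopper-Pearson intervals and ratios exact conditional intervals, all at 95%. The size rule asks for at least 20 UMIs over both libraries, a ratio past 1.5 and an interval that excludes 1, in types with at least 20 cells in each library. Likeness used log2(CPM + 5) and genes with at least 50 CPM in 1 type of both libraries. The text names all members, up to 4 list genes per type with the largest ratios and the genes most like each member. Free RNA was read from T cell-like (at least 5 of 7 markers) and mast cell-like cells (at least 5 of 8). A count of 0 allows up to 3 counts. Positions are from GENCODE M21, which holds 99.6% of the files' gene IDs, and promoters from RefSeq, with windows for 4 of the 9 members. Python 3.11.15, numpy 2.4.6, scipy 1.17.1, pandas 2.3.3 and matplotlib 3.10.9 were used, and the ratio functions were tested on simulated data.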

Additional observations from a re-analysis of the deposited data

How the results depend on the processing

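No paired analysis was possible because each group has 1 library, and for the same reason no replicate could be left out. The count of pairs at least 1.5-fold lower in anti-Gr-1, 9 as reported, was between 5 (male cells) and 12 (each cell weighted equally) over the alternatives. The count of pairs at least 1.5-fold higher, 0 as reported, was 1 with cells thinned to 2000 UMIs (Cd86 in the Fn1, Lpl and Retnla phagocytes, 1.81) and 1 with 1 more marker in each gate (Cd274 in the same phagocytes, 2.04). The number of members highest in mature DC-like cells was 4 to 6. Tnfsf9 in those phagocytes reversed, to 1.39 with 1 more marker in each gate and to 1.14 in male cells; the cause was not tested. Cd40 and Tnfsf9 in type 1 DC-like cells, Cd83 in non-classical monocyte-like cells and Tnfsf9 in Langerhans-like cells met the size rule under every alternative that gave them a value. Other pairs lost it in 1 to 4 alternatives. No alternative split a type by its number of mature DC markers. Female mature DC-like cells with anti-Gr-1 were under 20, so they gave no value. Gates on cells thinned to 4000 UMIs and leaving out the top cell were added after seeing the data. Doublet calls, the mitochondrial limit of 5%, the totals without mitochondrial and ribosomal protein UMIs and both UMI minimums changed neither count by over 1.5 times. Values resting on under 20 UMIs, such as those of anti-Gr-1 monocyte-like cells, are limited by depth.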
